A study of Mus musculus with 14 samples.

Results

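*Nr2f1* and *Nr2f2*, 2 of the 31054 genes counted in every library, were followed through the cells of the *Atoh1* lineage in the mouse hindbrain. They were found by their symbols in the gene list of all 14 libraries. They encode COUP-TFI and COUP-TFII, orphan nuclear receptors that act mainly as repressors of transcription and that can share DNA sites with the receptors for retinoic acid. Both are known from the forebrain, from work on the patterning of the cortex and on migrating neurons. Pontine nuclei (PN) neurons, which relay cortical input to the cerebellum, are born from *Atoh1*-expressing progenitors of the rhombic lip, migrate along the surface of the hindbrain and settle in the ventral pons.

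TdTom+ DAPI- cells were sorted and their RNA was counted in single cells as unique molecular identifiers (UMIs). The E14.5 and E18.5 samples were whole hindbrains, 3 control and 3 Atoh1S193A/- embryos per stage with 1 embryo per library, and each mutant was taken with a littermate control. The P5 samples were 2 control libraries, each from the dissected PN of several pooled pups. All mice were C57BL/6J with a Cre-dependent TdTomato reporter (Rosa lsl-TdTomato/+). Controls were Atoh1Cre/+, whose Cre allele is null for *Atoh1*, and mutants were Atoh1Cre/S193A, with the hypomorphic S193A allele over that null allele. Controls therefore also carried a single functional copy of *Atoh1*. The reporter marks every descendant of *Atoh1*-expressing cells, not PN neurons alone. The S193A allele is a point change, so the count of *Atoh1* does not check the genotype, and *Atoh1* stood at 55.4 to 137 UMIs in 1000000 UMIs of the library or cell group (CPM) in the E14.5 controls and at 86.2 to 143 CPM in the mutants.

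After filtering, 3248 to 8726 cells per library were kept, with a median of 12010.5 to 20924 UMIs per cell. Cells are called PN-like here where their cluster expressed the *Hox* genes, *Pax6* and *Barhl1* of the precerebellar lineage, which gave 7250 cells at E14.5, 3312 at E18.5 and 8248 at P5. Clusters high in *Lhx2* or *Reln* at E14.5, or in *En2* or *Eomes* at E18.5 and P5, were kept out. Neither *Nr2f1* nor *Nr2f2* entered the clustering or the naming of cells. The labels call the cells neurons, but the P5 cells included 1131 microglia and macrophage-like and 1189 oligodendrocyte lineage-like cells. At E14.5 the 2 libraries of litter 2 stood apart. A PN-like cluster of 1462 cells came to 97.4% from litter 2, and the litter 2 mutant had too few intermediate progenitor-like and differentiated neuron-like cells for a test, so E14.5 results are given with and without this litter where they differ. At P5, a cluster of 206 granule neuron-like cells and unnamed clusters of 363 and 158 cells came to 97.1, 99.2 and 97.5% from replicate 2. Any 2 libraries shared 13 to 67 cell barcodes, at most 0.624% of the smaller library. The file headers name Cell Ranger 3.1.0 for E14.5 controls 1 and 2, and version 5.0.1 for the remaining 12 libraries. The methods name the later version alone, so headers and methods differ for those controls.

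On the GRCm38 assembly with GENCODE vM21, *Nr2f1* (ENSMUSG00000069171) lies at chr13:78188973-78199757 on the minus strand and *Nr2f2* (ENSMUSG00000030551) at chr7:70351944-70366735 on the minus strand, each a protein-coding gene with 6 annotated transcripts. The antisense transcript *A830082K12Rik* (ENSMUSG00000087143, chr13:78198017-78279391, plus strand) overlaps *Nr2f1* over 1741 bases at the 5' end. Counting was done with the default settings of Cell Ranger, which counts reads on the strand of the transcript. Promoter windows of 300 bases, from 250 bases before to 50 after an annotated start, are shown because both genes varied together over cell types and because ATOH1 is a basic helix-loop-helix factor that binds E-boxes. The sequences are from RefSeq on GRCm38.p6, on the gene's strand, in lower case with each CANNTG motif in capitals. The windows are chr7:70366697-70366996 for *Nr2f2*, and chr13:78198824-78199123 and chr13:78196400-78196699 for the upstream and the downstream start of *Nr2f1*. Both *Nr2f1* windows lie inside the GENCODE span of the gene, short of its 5' end.
Nr2f2: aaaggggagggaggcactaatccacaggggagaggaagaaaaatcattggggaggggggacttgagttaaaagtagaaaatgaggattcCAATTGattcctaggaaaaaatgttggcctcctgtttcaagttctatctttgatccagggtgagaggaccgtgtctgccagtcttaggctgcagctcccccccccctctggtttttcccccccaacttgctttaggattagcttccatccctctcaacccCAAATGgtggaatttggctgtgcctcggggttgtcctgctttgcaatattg
Nr2f1 upstream start: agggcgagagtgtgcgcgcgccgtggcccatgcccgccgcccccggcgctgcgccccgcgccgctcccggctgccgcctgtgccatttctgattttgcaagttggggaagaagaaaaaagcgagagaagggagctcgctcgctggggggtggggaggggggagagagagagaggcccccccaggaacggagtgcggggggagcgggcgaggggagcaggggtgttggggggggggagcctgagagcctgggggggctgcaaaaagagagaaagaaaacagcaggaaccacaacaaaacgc
Nr2f1 downstream start: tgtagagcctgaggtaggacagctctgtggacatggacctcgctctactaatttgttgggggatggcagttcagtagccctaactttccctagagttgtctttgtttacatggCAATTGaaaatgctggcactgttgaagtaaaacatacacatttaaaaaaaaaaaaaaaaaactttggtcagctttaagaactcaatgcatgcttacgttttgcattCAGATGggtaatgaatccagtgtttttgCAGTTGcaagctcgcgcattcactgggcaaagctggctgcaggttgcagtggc
The upstream *Nr2f1* window, which lies inside the span of *A830082K12Rik*, was 68.0% G and C and held no CANNTG, whereas the *Nr2f2* window was 49.7% G and C with 2 such motifs, and the downstream *Nr2f1* window was 43.0% with 3. Over all 32851 promoter windows the median was 52.7% G and C, and 72.3% held at least 1 CANNTG. The nuclear receptor half-site AGGTCA was searched on both strands and was in none of the 3 windows, against 16.3% of all windows. A match or its absence describes these letters only.

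At E14.5, both genes were found in all PN-like states of the controls, from dividing progenitors to migrating neurons, and were lowest in differentiated neurons. *Nr2f1* was at 113, 87.0 and 120.1 CPM in progenitor-like cells of controls 1 to 3, at 119 and 84.4 CPM in intermediate progenitor-like cells of controls 1 and 3, at 89.9, 72.0 and 90.8 CPM in the migrating neuron-1-like state and at 123, 86.3 and 112 CPM in the migrating neuron-2-like state. The ranges of these 4 states overlapped. In differentiated neuron-like cells it was at 47.1, 42.9 and 42.9 CPM, below every value of the other states. *Nr2f2* followed the same order at its low end. It was at 82.4, 50.3 and 79.4 CPM in progenitor-like cells, at 53.8, 49.0 and 64.7 CPM in the migrating neuron-1-like state and at 25.4, 32.8 and 29.1 CPM in differentiated neuron-like cells, again with the differentiated cells alone of the named states below the rest. Control 2 had only 23 differentiated neuron-like cells, and its 287 unnamed PN-like cells were also low, at 55.9 CPM of *Nr2f1* and 28.8 CPM of *Nr2f2*. States were compared as a description, since they come from the same libraries and were cut from the same cells.

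At E18.5, where 4 classes of young PN neurons (ePN1 to ePN4) can be told from migrating cells, the levels of the genes spread apart. Neither receptor was among the markers used to name these classes. Markers that vary with a receptor would still favour a high level, and *Nrp1* of the ePN1 list is a reported COUP-TF target. The order of the classes is therefore a description. *Nr2f1* was highest in ePN1-like cells (243, 160.4 and 225 CPM in controls 1 to 3), which are marked by *Prox1*, *Nrp1* and *Meis2*, and in intermediate progenitor-like cells (161 and 260.0 CPM in the 2 controls with 10 or more such cells). It was lower in migrating neuron-like cells (97.3, 111 and 96.4 CPM) and in ePN2-like cells (101, 80.1 and 64.8 CPM). In ePN3-like cells, which carry *Hoxa5*, *Hoxb5* and *Hoxc4*, it was lowest, at 28.3, 44.3 and 28.2 CPM, and did not overlap ePN2-like cells. *Nr2f2* had another order. It was highest in migrating neuron-like cells, at 176, 195 and 191 CPM, which overlapped only intermediate progenitor-like cells (161 and 210.0 CPM). It was at 126, 126 and 96.1 CPM in ePN2-like cells and at 98.8, 81.9 and 134 CPM in ePN1-like cells, and these overlapped. ePN3-like cells were again lowest, at 11.9, 14.3 and 10.6 CPM, and ePN4-like cells, which had 10 or more cells in only 2 controls, were at 49.5 and 18.6 CPM.

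At P5 the subtype PN5 stood apart for *Nr2f2*. Neither receptor was among the PN5 markers used here, but markers that vary with *Nr2f2* would favour a high level, so this is a description. PN5-like cells (404 cells), marked by *Lrrn3*, *Spats2l* and *Cadm1* among others, had 239 and 241 CPM of *Nr2f2* in the 2 libraries. The next named subtype, PN3-like cells, had 26.5 and 20.6 CPM, so that the mean of PN5-like cells was 10.2-fold higher. PN2-like (13.0 and 8.03 CPM) and PN1-like cells (10.6 and 7.47 CPM) overlapped, and PN6-like (2.50 and 5.04 CPM) and PN4-like cells (2.44 and 1.68 CPM) were lowest. *Nr2f1* was also highest in PN5-like cells, at 124 and 115 CPM, but the range was narrower. PN3-like cells had 66.5 and 67.4 CPM, PN2-like cells 41.2 and 43.7, PN4-like cells 33.7 and 38.4, PN1-like cells 29.7 and 30.2 and PN6-like cells 22.2 and 22.9 CPM, a 5.31-fold span of the means. In this order, set by these means themselves, no neighbouring named subtypes overlapped for *Nr2f1*, with 2 libraries each. How many other genes would do the same was not counted, so this too is a description. Among the 1104 PN-like cells that stayed unnamed at P5, a subcluster of 220 cells led by *Cmtm8*, *Tmem176b* and *Lmo3* was also rich in both genes, with 50.4 and 71.8 CPM of *Nr2f2* and 86.1 and 97.4 CPM of *Nr2f1*, between PN3-like and PN5-like cells. It held 83.6 and 91.3% of the *Nr2f2* UMIs of the unnamed cells and was described after its values were seen. Its best marker list was that of PN5, but another list had more markers among its leading genes.

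**Figure D1:**
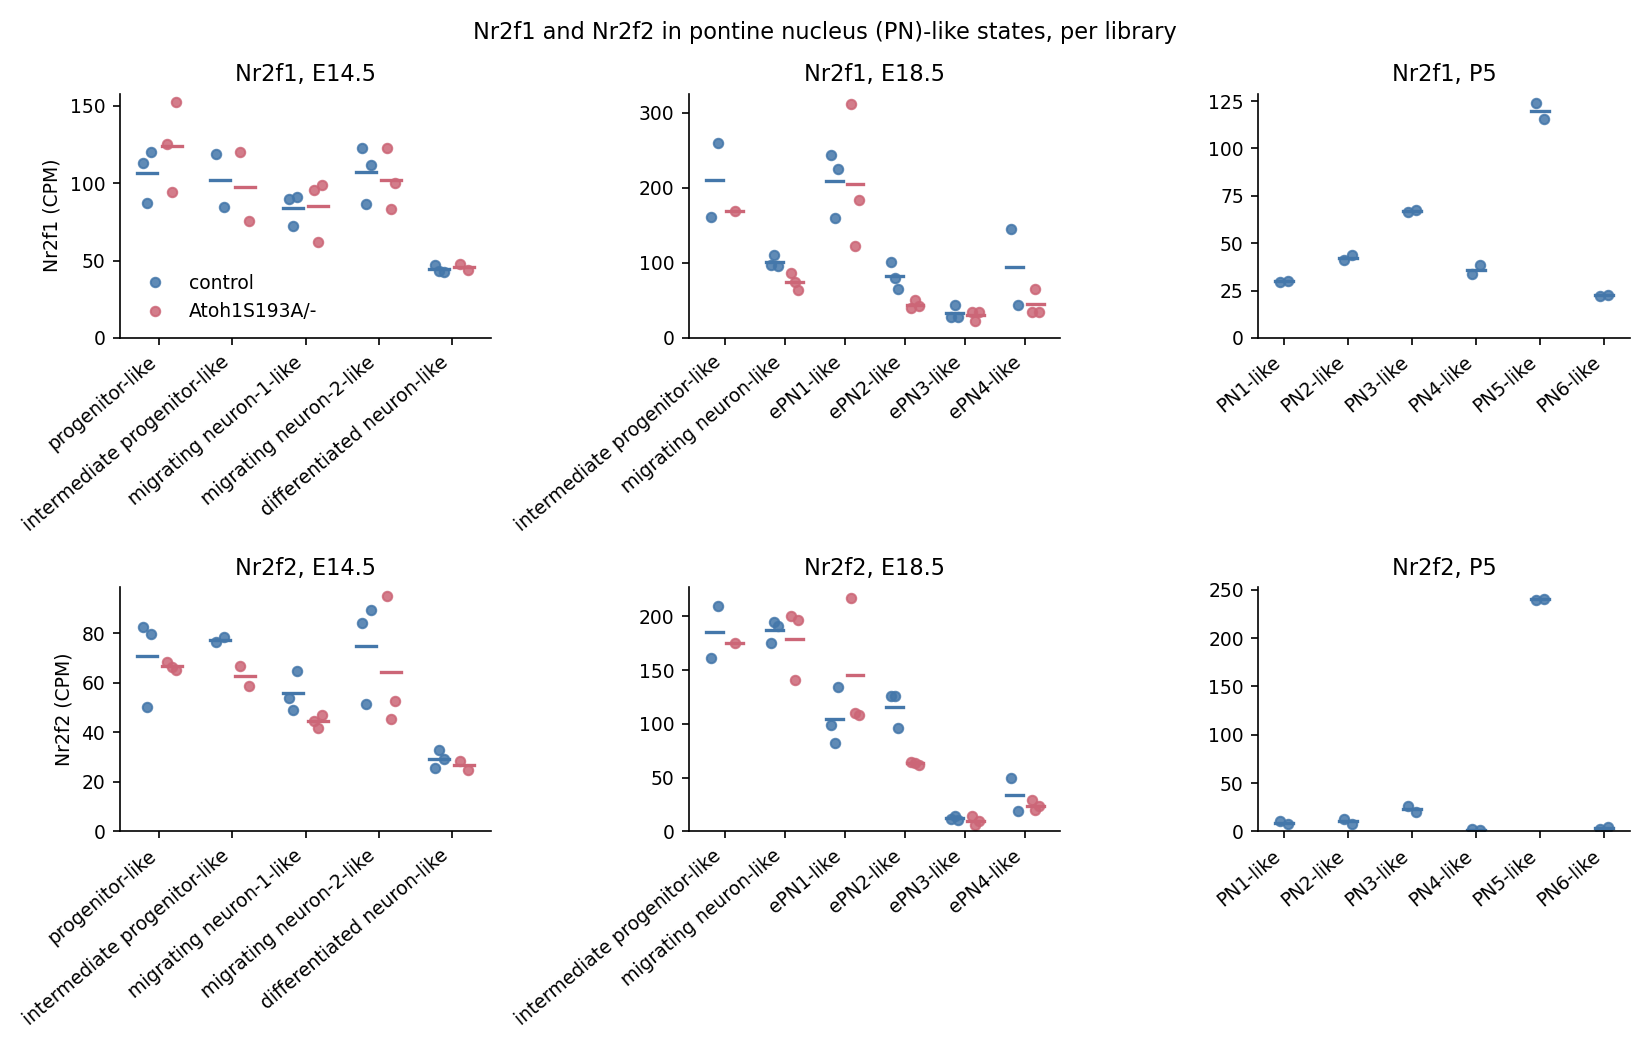
Level of *Nr2f1* (top) and *Nr2f2* (bottom) in CPM in each PN-like state at E14.5, E18.5 and P5. Each point is a library with 10 or more cells of the state, bars are means, blue is control and red is Atoh1S193A/-. PN5-like cells at P5 stand above all other named subtypes for *Nr2f2* (239 and 241 CPM against at most 26.5 CPM).

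The share of cells with the transcript gave the same picture at equal depth. Each cell was thinned to 5000 UMIs, which left out 1 PN5-like and 1 PN4-like cell and, in libraries 1 and 2, 80 and 41 microglia and macrophage-like cells. *Nr2f2* was then found in 63.7% (exact Clopper-Pearson 95% interval 57.2 to 69.8) and 70.4% (62.9 to 77.2) of PN5-like cells of P5 libraries 1 and 2. In PN4-like cells it was found in 0.375% (0.0773 to 1.09) and 0.686% (0.142 to 1.99), which is at or below the 2.77% (1.62 to 4.40) and 1.26% (0.411 to 2.92) of microglia and macrophage-like cells, which should lack it. A share at that level is read as background. Without thinning the shares were 96.6 and 96.4% in PN5-like cells (median 23446 and 28074 UMIs), 6.61 and 5.26% in PN4-like cells (38640.5 and 49276 UMIs) and 4.03 and 1.83% in microglia and macrophage-like cells (10133.5 and 10405 UMIs). *Nr2f1* was not at background in PN4-like cells, with 13.98 and 17.6% of thinned cells against 4.23 and 1.52% of microglia and macrophage-like cells. In PN4-like neurons *Nr2f1* was thus counted above that background and *Nr2f2* was not detectable above it. The intervals cover counting error only.

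Over all sorted cells, the mutation was compared with the littermate controls at each stage. At E14.5, *Nr2f1* was at 255, 332 and 243 CPM in controls 1 to 3 and at 281, 418 and 296 CPM in the mutants. It was higher in the mutant of all 3 litters, but the litters differed as much as the genotypes and the groups overlapped. The log2 change was 0.23 (SE 0.18, adjusted p = 0.649 by edgeR's quasi-likelihood test), and with litter as a block it was 0.23 (SE 0.05, adjusted p = 0.0277), under the 0.25 that a call required here. Leaving out 1 library gave 0.05 (without mutant 2) to 0.38 (without control 2). By the file headers, controls 1 and 2 were made with Cell Ranger 3.1.0 and all mutants with 5.0.1, so version and genotype would partly coincide at E14.5. With the 5.0.1 libraries alone, where control 3 is the single control and is assumed to vary like the mutants, the log2 change was 0.38 (SE 0.25, adjusted p = 0.997, edgeR). *Nr2f2* was at 175, 219 and 179.9 CPM in controls and at 178, 274 and 183 CPM in mutants (log2 change 0.11, SE 0.17). Neither gene was called in either fit or by DESeq2, and without the block neither had an unadjusted p under 0.05, against 0.00977% of all 10240 genes called.

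At E18.5, the genotypes lay on top of each other in all sorted cells. *Nr2f1* was at 191, 183 and 184 CPM in controls and at 203, 178 and 179 CPM in mutants, with a log2 change of -0.01 (SE 0.06). The interval of 2 SE on either side ran from -0.12 to 0.10. *Nr2f2* was at 166, 149 and 165 CPM in controls and at 175, 124 and 158 CPM in mutants (log2 change -0.09, SE 0.11). Again neither was called by edgeR (0% of 9884 genes) or by DESeq2, and neither had an unadjusted p under 0.05. In the same thinned cells, *Nr2f1* was found in 48.2% ± 2.87 (SD, n = 3) of E14.5 control cells and 53.6% ± 4.03 (SD, n = 3) of mutant cells (two-sided exact permutation p = 0.2, adjusted p = 0.8 over 6 shares), and in 47.7% ± 1.35 and 48.7% ± 2.66 at E18.5 (exact p = 0.7). With 3 against 3 the smallest p possible is 0.1.

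PN-like cells alone, summed in each library in a comparison added after the data were seen, gave another result for *Nr2f1*. At E14.5 they had 91.0, 73.8 and 73.9 CPM in controls and 97.8, 79.0 and 100.1 CPM in mutants, higher in the mutant of every litter and overlapping between the groups (log2 change 0.18, SE 0.12, adjusted p = 0.412, edgeR). With litter as a block the log2 change was 0.18 (SE 0.08, adjusted p = 0.123, edgeR), and with cells of up to 10% mitochondrial UMIs it was 0.41 and called (adjusted p = 0.0473, edgeR). With the Cell Ranger 5.0.1 libraries alone, and so a single control, it was 0.26 (SE 0.18, adjusted p = 0.477, edgeR). At E18.5 they had 96.6, 93.2 and 79.1 CPM in controls and 67.6, 51.7 and 48.5 CPM in mutants. All 3 mutants lay below all 3 controls. The log2 change was -0.68 (SE 0.12), that is, 62.6% of the control level, with an unadjusted p of 0.000446 and an adjusted p of 0.481 by edgeR, so *Nr2f1* was not called, as no gene was (0% of 9945). With litter as a block the log2 change was -0.68 with an adjusted p of 0.003 (called, with 7 genes higher and 18 lower), and DESeq2 gave an adjusted p of 0.000998. *Nr2f2* in the same cells was at 106, 111 and 85.9 CPM in controls and at 96.8, 64.5 and 60.8 CPM in mutants (log2 change -0.44, SE 0.17, unadjusted p = 0.0283, adjusted p = 1.0, edgeR), and its groups overlapped. With 1 library left out its log2 change was -0.68 to -0.31. Some marker sums made for other lineages were also lower in these cells in mutants without overlap. Those of inhibitory neurons (120 to 156 CPM in controls and 126 to 187 CPM in mutants) and of microglia and macrophages overlapped. The 8 markers of cerebellar nuclei and rostral neurons, *Meis2* of the ePN1 list among them, summed to 296 to 386 CPM in controls and 221 to 260 CPM in mutants. At E18.5 *En2* and *Eomes* were used to keep other lineages out, and at E14.5 *Lhx2* and *Reln*. These genes together summed to 121 to 165 CPM in controls and 109 to 120 CPM in mutants. Their part in the result was not tested.

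In the sums of PN-like cells, the estimated genotype effect on *Nr2f1* differed between the stages. The makeup of these sums differed between genotypes, as given below, and other genes kept other lineages out at each stage. The part of these differences in the interaction was not tested. The interaction of genotype and stage was -0.85 on the log2 scale (SE 0.18, adjusted p = 0.0471, edgeR), and 1.49% of 10796 genes were called. A litter block lowered the adjusted p to 0.00445, and leaving out both libraries of litter 2 gave -0.92 (adjusted p = 0.025, both edgeR). Leaving out any 1 of 11 libraries ended the call, with adjusted p up to 0.114, and only the fit without E14.5 mutant 2 kept it (0.0286). For *Nr2f2* the interaction was -0.40 (SE 0.23, adjusted p = 0.406, edgeR), which does not show that its effects were alike. It was -0.64 to -0.29 with 1 library left out. The interaction was not fitted without the 2 libraries of the older Cell Ranger. In all sorted cells the interaction without a block was -0.23 for *Nr2f1* (-0.38 to -0.048 with 1 library left out) and -0.19 for *Nr2f2*. There neither was called or had an unadjusted p under 0.05 by edgeR (0% of 10532 genes called). With litter as a block it was -0.23 for *Nr2f1*, with an interval of 2 SE on either side from -0.36 to -0.094. For *Nr2f2* it was -0.18 (-0.39 to 0.022). Neither gene was called in any fit.

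**Figure D2:**
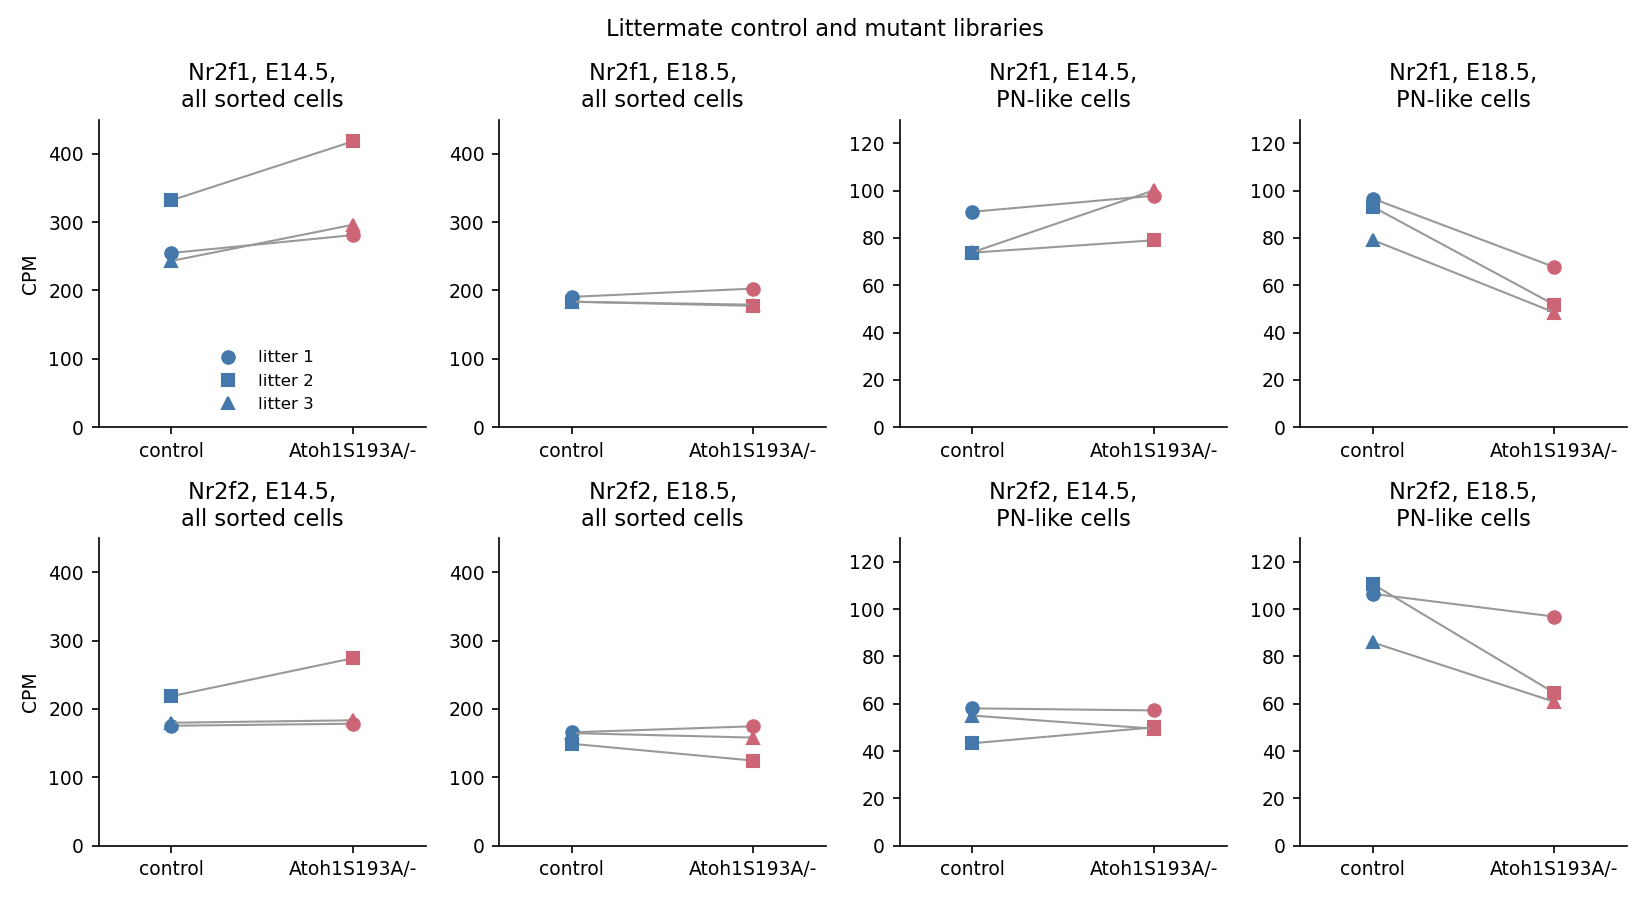
Level in CPM of *Nr2f1* (top) and *Nr2f2* (bottom) in control (blue) and Atoh1S193A/- (red) littermates, joined by a line, in all sorted cells and in PN-like cells at E14.5 and E18.5. Symbols mark the 3 litters of a stage. *Nr2f1* in PN-like cells is higher in the mutant of all 3 litters at E14.5 and lower in all 3 at E18.5 (79.1 to 96.6 CPM in controls, 48.5 to 67.6 CPM in mutants).

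Within single PN-like states at E14.5 no call was made for either gene. Of 10 tests, 5 states by 2 genes, 1 had an unadjusted p under 0.05, and neither DESeq2 nor the fit with litter as a block made a call. That test was *Nr2f2* in migrating neuron-1-like cells, at 53.8, 49.0 and 64.7 CPM in controls and at 44.6, 41.7 and 46.9 CPM in mutants (log2 change -0.37, SE 0.14, adjusted p = 1.0, edgeR). The mutants lay below the controls without overlap, and 0% of 9399 genes were called there. *Nr2f1* in progenitor-like cells was at 113, 87.0 and 120.1 CPM in controls and at 125, 94.3 and 152 CPM in mutants (log2 change 0.19, SE 0.21, 0.00992% of 10082 genes called). Of all genes tested, 0.154% were called in intermediate progenitor-like cells, 0.0105% in the migrating neuron-2-like state and 0.0102% in cells like differentiated neurons. PN-like cells of the E14.5 mutants held more progenitor-like cells (365, 319 and 521) than those of the controls (74, 112 and 86), and in the sum of PN-like cells 6.85% of 10084 genes were called. The part of this makeup in the summed level of *Nr2f1* was not tested.

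At E18.5, 1 of 10 such tests was called, and 5 had an unadjusted p under 0.05. The called result was *Nr2f2* in ePN2-like cells, where 0.0402% of 9949 genes (4) were called. These cells include a subcluster, described next, whose markers fit the ePN2 list less well than the rest. *Nr2f2* was at 126, 126 and 96.1 CPM in controls and at 64.8, 63.5 and 61.9 CPM in mutants. The groups did not overlap, and the log2 change was -0.86 (SE 0.11, adjusted p = 0.0152, edgeR), that is, 55.1% of the control level. Without mutant 1 the adjusted p was 0.141 and without mutant 2 it was 0.124, with log2 changes of -0.86 and -0.86, while leaving out each of the other 4 libraries kept the call. *Nr2f1* was at 101, 80.1 and 64.8 CPM in controls and at 39.4, 50.3 and 42.2 CPM in mutants, also without overlap (log2 change -0.91, SE 0.15). Its adjusted p was 0.062, just past the threshold, and it was called with litter as a block (adjusted p = 0.000899, edgeR) and by DESeq2 (0.000318).

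A small group of cells held most UMIs of both genes in ePN2-like cells of the controls. A subcluster of 110 cells, put with the ePN2-like cells by its best list score, was led by *2900055J20Rik*, *Grik1*, *Spats2l* and *Cadm1* and by *Met*, the receptor for hepatocyte growth factor, and is called the *Met* subcluster here. It was singled out after its values were seen. The ePN2 list was its best match, but a weak one, with a mean standardised level of 0.31 against 0.87 to 2.00 in the other 4 ePN2-like subclusters. In the controls its cells had 332, 362 and 340 CPM of *Nr2f1* and 393, 583 and 516 CPM of *Nr2f2*, above the mean of every other PN-like subcluster with 10 or more cells in a control library. The *Met* subcluster held 23, 19 and 38 cells in the controls and 4, 5 and 21 cells in the mutants. It made up 5.74, 3.74 and 4.47% of PN-like cells in controls and 0.637, 1.74 and 3.30% in mutants, with no overlap (4.65% ± 1.01 against 1.89% ± 1.34, SD, n = 3 each; exact permutation p = 0.1, the smallest possible, adjusted p = 0.5 over 20 subclusters). It gave 68.7, 66.1 and 68.4% of the *Nr2f1* UMIs of ePN2-like cells in controls against 13.4 to 43.6% in mutants. For *Nr2f2* these shares were 65.3, 67.8 and 69.9% in controls and 20.5, 22.8 and 52.8% in mutants.

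Without the *Met* subcluster, the ePN2-like cells of both genotypes had close levels of each gene. The subcluster was chosen for its high levels and had a larger share in controls, so a smaller difference without it follows from the choice, and the values are a description. *Nr2f1* was then at 40.1, 31.8 and 23.5 CPM in controls and at 34.7, 32.2 and 26.6 CPM in mutants (log2 change 0.02). *Nr2f2* was at 55.3, 47.4 and 33.2 CPM in controls and at 52.3, 52.3 and 32.7 CPM in mutants (log2 change 0.03). The groups overlapped for both genes. At the finer resolution of 2, where the *Met* cells formed an unnamed subcluster of 87 cells and left the ePN2-like class, the log2 changes were 0.03 and 0.10. Leaving out any of the other 4 ePN2-like subclusters kept the direction of both and the call of *Nr2f2*. Inside the *Met* subcluster, mutants 1 to 3 had 353, 322 and 172 CPM of *Nr2f1* from 21, 32 and 68 UMIs, and 892, 232 and 307 CPM of *Nr2f2* from 53, 23 and 121 UMIs. For *Nr2f1* mutant 1 lay within the controls, mutant 2 just below them and mutant 3 well below, and for *Nr2f2* mutant 1 lay above all controls and the other two below. No genotype test was run within it, since only mutant 3 reached the minimum of 10 cells used for tests here.

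The *Met* subcluster carried several of the genes that mark PN5 at P5, the subtype with the highest level of both receptors, but was higher for other lists too. The summed level of the 9 PN5 markers was 2847 to 3163 CPM in the *Met* subcluster of the controls and 1266 to 1312 CPM in the other ePN2-like cells. The ePN1 markers summed to 1869 to 2539 CPM against 901 to 964 CPM, and the ePN4 markers to 1592 to 2030 CPM against 498 to 745 CPM. The ePN2 markers were lower in it, at 4523 to 4745 CPM against 6567 to 7302 CPM. *En2* and *Eomes* were used to keep other lineages out of the PN-like cells at E18.5, and *Lhx2* and *Reln* at E14.5 only. These 4 genes together summed to 274 to 312 CPM in the *Met* subcluster of the controls against 70.2 to 129 CPM. *Lhx2* was among its leading genes, and 8 markers of cerebellar nuclei and rostral neurons, *Lhx2* included, summed to 242 to 285 CPM in it against 142 to 182 CPM in the other ePN2-like cells of the controls. In all ePN2-like cells that sum was 161 to 194 CPM in controls and 122 to 136 CPM in mutants. Of 10 markers of microglia and macrophages 2 had a UMI in the *Met* subcluster, and of 6 endothelial markers 1 had (0 to 2.49 CPM in controls). In all ePN2-like cells the microglia and macrophage sum was 10.8 to 17.4 CPM in controls and 17.3 to 18.6 CPM in mutants. Other sums separated the genotypes there in both directions. Inhibitory neuron markers were at 57.6 to 82.8 CPM in controls and 84.9 to 93.0 CPM in mutants. The ePN1 markers were at 1043 to 1294 and 851 to 981 CPM, and the PN5 markers at 1513.5 to 1614 and 1234 to 1434 CPM. Median depth of ePN2-like cells was 23709, 16040 and 20540.5 UMIs in controls and 19321.5, 16902 and 16198 UMIs in mutants. The part of these markers and of depth in the result was not tested.

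**Figure D3:**
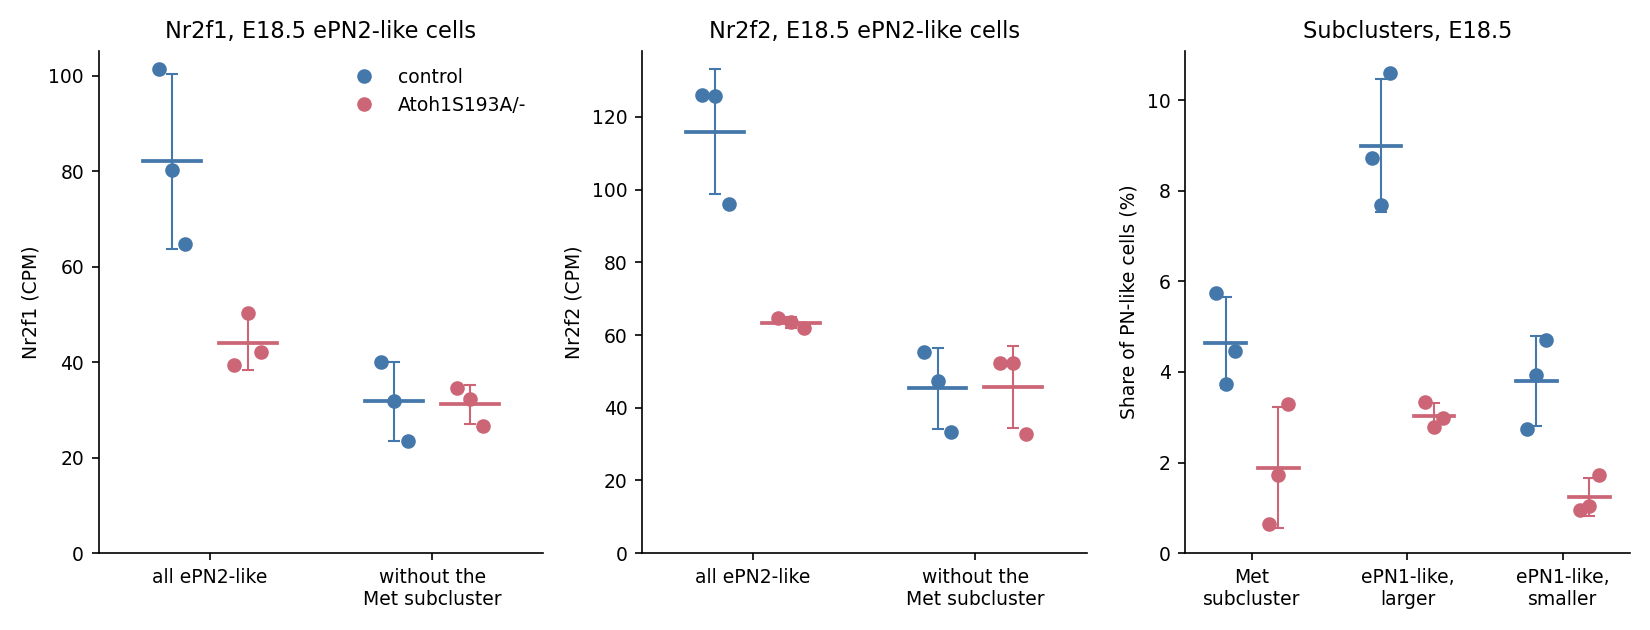
Left and middle, level of *Nr2f1* and *Nr2f2* in CPM in E18.5 ePN2-like cells with and without the *Met* subcluster. Right, share of PN-like cells in the *Met* subcluster and in the ePN1-like subclusters of 212 and 91 cells. Points are libraries, bars are means and whiskers are SD (n = 3), blue is control and red is Atoh1S193A/-. *Nr2f2* is at 96.1 to 126 CPM in controls and 61.9 to 64.8 CPM in mutants, and without the *Met* subcluster the groups overlap.

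ePN1-like cells, another class rich in *Nr2f1*, also had a lower share of PN-like cells in each mutant than in any control, in both of their subclusters. Their larger subcluster of 212 cells, with *Nr2f1* at 269 CPM ± 44.3 (SD, n = 3) in controls, was 8.998% ± 1.47 of PN-like cells in controls and 3.03% ± 0.29 in mutants, and the smaller one of 91 cells was 3.80% ± 0.99 and 1.24% ± 0.42 (SD, n = 3 each; exact permutation p = 0.1 and adjusted p = 0.5 over 20 subclusters for each). Within ePN1-like cells neither gene was called. *Nr2f1* was at 243, 160.4 and 225 CPM in controls and at 311, 122 and 184 CPM in mutants (log2 change 0.05, SE 0.19), and *Nr2f2* was at 98.8, 81.9 and 134 CPM in controls and at 217, 110.1 and 108 CPM in mutants (log2 change 0.46, SE 0.21, unadjusted p = 0.035, adjusted p = 1.0, edgeR). The share of all genes called there was 0% of 9853, and the mutant libraries had 27, 11 and 30 such cells. When ePN1-like cells and the *Met* subcluster were both left out of the PN-like cells, *Nr2f1* was at 60.7, 71.3 and 41.5 CPM in controls and at 57.3, 43.6 and 37.7 CPM in mutants. The log2 change went from -0.68 to -0.31, and the groups overlapped, while the mutant was lower in all 3 litters. Intermediate progenitor-like cells, about as rich in *Nr2f1* as ePN1-like cells in controls, were kept in. The cells left out were chosen for their high levels, so these values too are a description. For *Nr2f2* the same cells had 86.1, 90.5 and 53.7 CPM in controls and 88.2, 59.5 and 48.6 CPM in mutants.

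Of the other E18.5 states, migrating neuron-like cells had the clearest lower value of *Nr2f1* in mutants. It was at 97.3, 111 and 96.4 CPM in controls and at 86.0, 74.5 and 64.6 CPM in mutants, without overlap (log2 change -0.43, SE 0.11, unadjusted p = 0.00197, adjusted p = 0.638, edgeR, 0.0312% of 9621 genes called). *Nr2f2* in these cells was at 176, 195 and 191 CPM in controls and at 199.9, 141 and 196 CPM in mutants (log2 change -0.06, SE 0.12). In ePN3-like cells both genes were low in both genotypes (22.1 to 44.3 CPM of *Nr2f1* and 5.96 to 14.3 CPM of *Nr2f2*), with overlapping groups and 0.00978% of 10223 genes called. In ePN4-like cells the value for *Nr2f1* was a log2 change of -0.78 (SE 0.37, adjusted p = 1.0, edgeR, 0% of 10774 genes called), from 5 libraries with 11 to 51 cells. It rested on the 11 cells of control 2 (145 CPM, against 44.5 CPM in control 3), as the log2 change was -0.08 without that library and -1.79 without control 3, and with the 10% mitochondrial limit it turned to 0.67.

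Genotypes were also compared in each cluster of all sorted cells, PN-like or not. Clusters with 10 or more cells in all 6 libraries were tested, 34 at E18.5 and at E14.5 27 for *Nr2f1* and 26 for *Nr2f2*. At E18.5 *Nr2f1* was called in 1 of 34 clusters, with 6 at an unadjusted p under 0.05, and *Nr2f2* in none, with 8. At E14.5 neither gene was called in any cluster by edgeR, with 5 and 6 at an unadjusted p under 0.05. Over all genes and clusters, 0.14% of 318479 tests were called at E18.5 and 0.00494% of 262979 at E14.5. The called cluster, described after its values were seen, was a PN-like cluster of 914 cells led by *Id2*, *Cntnap5a* and *Lmo4*. There *Nr2f1* was at 155, 140.0 and 173 CPM in controls and at 98.5, 58.8 and 92.8 CPM in mutants (log2 change -0.87, SE 0.13, adjusted p = 0.0156, edgeR, 0.125% of 9638 genes called). The groups did not overlap. *Nr2f2* in the same cells did not follow, at 162, 187 and 171 CPM in controls and 169.9, 138 and 191 CPM in mutants (log2 change -0.05, SE 0.11). As a description, since these cells were chosen with their values known, leaving out the *Met* cells of this cluster gave a log2 change of -0.70 for *Nr2f1*, and leaving out its migrating neuron-like cells led by *Fbxl7* and *Gad2* gave -0.61. Among the fits that left out a subcluster, the adjusted p of *Nr2f1* reached 0.199 (edgeR), so the call was not kept in all of them. With litter as a block, 2 clusters were called for *Nr2f1* and 4 for *Nr2f2* at E18.5, and 1 and 3 at E14.5, where 0.594% and 0.266% of all such tests were called.

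Between the stages, controls of E18.5 were set against controls of E14.5. Libraries of a stage were made from that stage alone, so stage, library preparation and the makeup of the cells cannot be told apart. Of the 3 E14.5 controls, 2 have headers of the older Cell Ranger. In all sorted cells *Nr2f1* was lower at E18.5, from 255, 332 and 243 CPM to 191, 183 and 184 CPM (log2 change -0.66, SE 0.12, adjusted p = 0.00442, edgeR). *Nr2f2* was lower too, from 175, 219 and 179.9 CPM to 166, 149 and 165 CPM (log2 change -0.34, SE 0.10, adjusted p = 0.0288, edgeR). Neither gene overlapped between the stages, and 51.7% of 10290 genes were called. Without a single library the *Nr2f2* call was lost in 4 of 6 fits, with adjusted p up to 0.0892, and that of *Nr2f1* was kept in all 6.

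PN-like cells went the other way for *Nr2f2*. Its level was 58.0, 43.3 and 55.0 CPM at E14.5 and 106, 111 and 85.9 CPM at E18.5, without overlap (log2 change 0.85, SE 0.13, adjusted p = 0.000471, edgeR). It was called in every fit that left out a library. The E18.5 level was 180.4% of the E14.5 level, in a comparison where 63.6% of 10319 genes were called. The PN-like sums held different states at each stage. The genes used to keep other lineages out also differed, *Lhx2* and *Reln* at E14.5 and *En2* and *Eomes* at E18.5. The part of these differences in the change was not tested. *Nr2f1* was at 91.0, 73.8 and 73.9 CPM and then at 96.6, 93.2 and 79.1 CPM (log2 change 0.07, SE 0.10, adjusted p = 0.566, edgeR). At P5, from dissected PN and so given side by side only, PN-like cells had 44.6 and 48.5 CPM of *Nr2f1* and 21.4 and 22.1 CPM of *Nr2f2*.

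Over all clusters of a stage, PN-like ones included, both genes covered a wide range. Over 43 clusters at E14.5 the mean of *Nr2f1* ran from 36.8 to 1274 CPM and that of *Nr2f2* from 8.85 to 902 CPM. Over 40 clusters at E18.5 they ran from 29.4 to 618 CPM and from 3.01 to 1373 CPM, and over 34 clusters at P5 up to 553 and 491 CPM from a microglia and macrophage-like cluster at background, where the 491 CPM of *Nr2f2* is the value of library 2 alone, since library 1 had 6 cells of that cluster. The clusters named next were picked as the extremes. *Nr2f1* was highest at E14.5 in an unnamed cluster led by *C1ql1*, *Dlk1* and *Sst* (1274 CPM ± 239, SD, n = 6 libraries of both genotypes) and at E18.5 in a cluster led by *Nts*, *Rassf9* and *Barx2* (618 CPM ± 34.9, SD, n = 6). *Nr2f2* was highest at E14.5 in a cluster led by *Foxb1* (902 CPM ± 126, SD, n = 6) and at E18.5 in a cluster led by *Tll1*, *Caln1* and *Bcl11b* (1373 CPM ± 62.7, SD, n = 6). At E18.5 the lowest cluster of both genes was the same, a cerebellar nuclei and rostral neuron-like cluster led by *Tcf7l2* and *Zfhx3*, with a mean of 29.4 CPM of *Nr2f1* (82.1 CPM in mutant 1 and 6.27 to 24.8 CPM in the other libraries) and of 3.01 CPM of *Nr2f2*, the latter from 0 or 1 UMI in each of 5 libraries.

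Cell classes differed in the balance of both genes. Radial glia and astrocyte-like cells had a high level of *Nr2f1* at every stage. At E14.5 it was at 449, 471 and 434 CPM in controls and at 327, 309 and 372 CPM in mutants, without overlap (log2 change -0.39, SE 0.14, unadjusted p = 0.0125, adjusted p = 0.407, edgeR). At E18.5 it was at 558, 507 and 497 CPM in controls and at 392 and 486 CPM in mutants 1 and 3, again without overlap but not tested, and at P5 at 406 and 428 CPM. *Nr2f2* in these cells had means of 128, 128 and 138 CPM at the 3 stages. Roof plate and dorsal rhombic lip-like cells at E14.5 were also rich in *Nr2f1*, at 456, 446 and 356 CPM in controls and at 533, 602 and 491 CPM in mutants. Their *Nr2f2* was at 171, 124 and 124 CPM in controls and at 189.7, 221 and 208 CPM in mutants, and neither gene overlapped between the genotypes. How many other genes separated the genotypes like this in these classes was not counted, so the lack of overlap is a description. In the larger of the 2 clusters of this class (902 cells), the only one tested, the log2 changes were 0.36 for *Nr2f1* (SE 0.31) and 0.54 for *Nr2f2* (SE 0.22), both with an adjusted p of 1.0 by edgeR, and *Nr2f2* was called with litter as a block (adjusted p = 0.00948). Over all genes and E14.5 clusters, 0.00494% of tests were called without the block and 0.266% with it. Granule neuron-like cells had 287 CPM ± 22.2 of *Nr2f2* at E14.5 (SD, n = 6), 62.7 ± 11.9 at E18.5 (SD, n = 6) and 413 and 512 CPM in P5 libraries 1 and 2, of 339 and 294 cells. P5 cells were from dissected PN, so the stages are given side by side only. In P5 libraries 1 and 2 these cells came from a cluster of 333 and 94 cells and another of 6 and 200 cells. Their *Bcl11b* was at 304 and 80.6 CPM, against 4.96 to 10.5 CPM in granule neuron-like cells at E18.5. Pericyte and mesenchyme-like cells at P5 had 347 and 257 CPM of *Nr2f2* in libraries 1 and 2 but 55.4 and 61.3 CPM of *Nr2f1*. Microglia and macrophage-like cells at P5 had 6.70 and 5.08 CPM of *Nr2f1* and 4.61 and 1.62 CPM of *Nr2f2*, the floor against which the other P5 levels can be read.

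**Figure D4:**
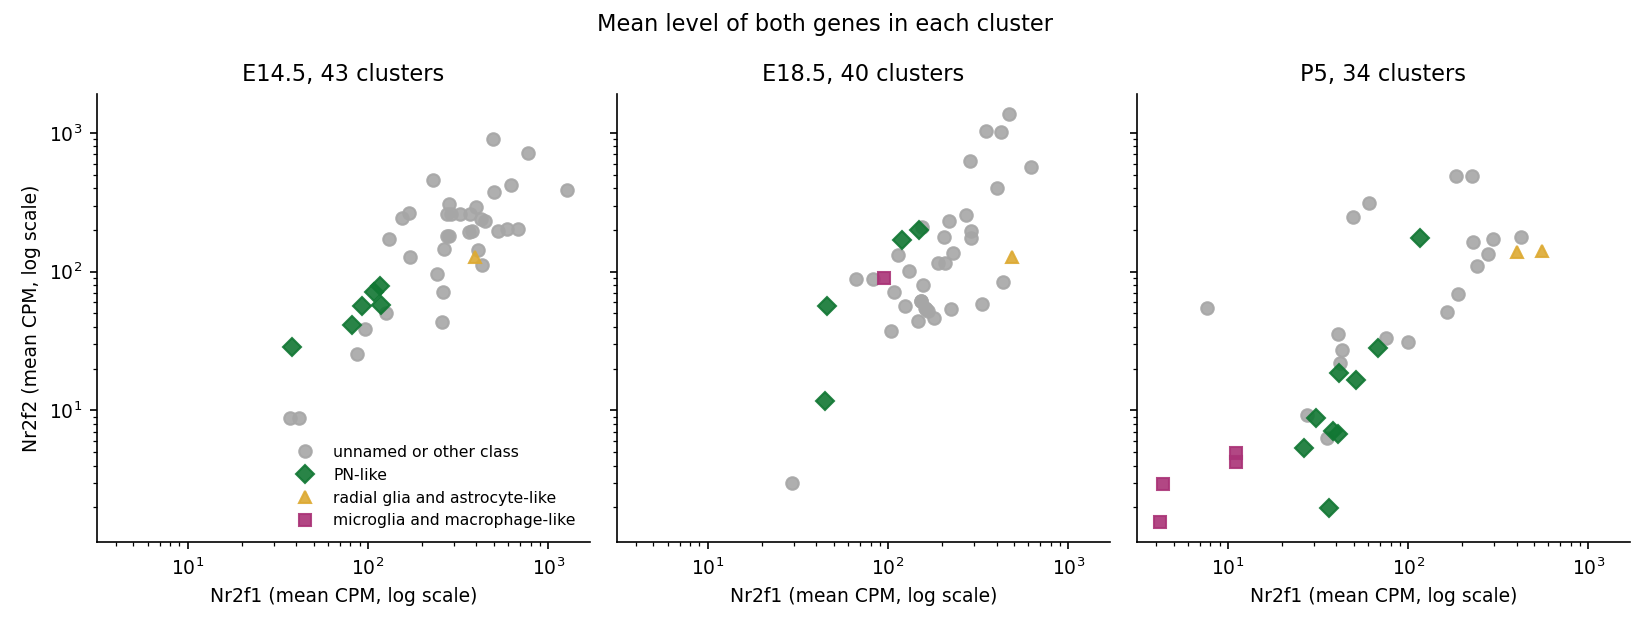
Mean level in CPM of *Nr2f2* (vertical, log scale) against *Nr2f1* (horizontal, log scale) in each cluster at E14.5, E18.5 and P5. Each point is a cluster (mean over libraries), with PN-like clusters in green, radial glia and astrocyte-like clusters in yellow, microglia and macrophage-like clusters in purple and all others in grey. Clusters high for either gene tend to be high for both (r = 0.807 over 117 clusters).

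Over the 117 clusters of the 3 stages the levels of *Nr2f1* and *Nr2f2* on the scale of log2(CPM + 1) went together, with r = 0.807 and rho = 0.762. Within a stage r was 0.826 at E14.5, 0.678 at E18.5 and 0.777 at P5. The clusters of a stage share their libraries, so these are descriptions without a test. Among 14872 genes compared in the same way, *A830082K12Rik* was most like *Nr2f1* (r = 0.89), followed by *Nr2f2* (0.81), *Msi1* (0.67), *Zfp41* (0.67) and *Gdf11* (0.64). The antisense transcript overlaps *Nr2f1* at the 5' end. Most like *Nr2f2* were *Nr2f1* (0.81), *A830082K12Rik* (0.75), *Gm35842* (0.66), *Gm44812* (0.62) and *Zfp606* (0.58). The third member of the family, *Nr2f6*, was unlike both (r = -0.02 and 0.00), as were the partner genes *Bcl11a* (0.07 and -0.13), *Bcl11b* (0.22 and 0.25), *Zfpm1* (-0.07 and 0.11) and *Zfpm2* (-0.14 and -0.13).

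Genes that work with the COUP-TFs were taken from lists made with earlier results of these data known. Of 7 protein partners, among them the zinc finger proteins BCL11A and BCL11B, the FOG proteins encoded by *Zfpm1* and *Zfpm2* and the corepressor NCOR1, none was called between genotypes in all sorted cells or in any single PN-like state with edgeR. In those comparisons only 0 to 0.154% of all genes were called, so the count says little about the partners. In E14.5 PN-like cells together, 2 of the 7 were called, 1 in each direction, and 5 were not, where 6.85% of all 10084 genes were called. *Zfpm1* was lower in mutants (log2 change -0.61, SE 0.14, adjusted p = 0.0466, edgeR). The median of the list was 0.03 against -0.003 for all genes. *Nr2f6* was not called in any genotype comparison, with log2 changes of -0.05 in PN-like cells at E14.5 and -0.05 at E18.5.

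Between the stages these lists moved in both directions. In PN-like cells of the controls, 1 partner rose (*Zfpm2*, log2 change 2.05), 2 fell (*Bcl11b*, -0.76, among them) and 4 were not called (*Bcl11a* at 0.22 and *Zfpm1* at 0.04 among them). *Nr2f6* fell (-0.50). Of 9 genes reported as COUP-TF targets 6 were tested, and 3 rose, among them the semaphorin coreceptor *Nrp1* (2.50) and the transcription factor *Etv1* (2.07), while 2 fell. Of 12 genes for retinoic acid handling 3 were tested, and the binding proteins *Crabp1* (-3.17) and *Crabp2* (-6.65) fell. Of 6 retinoid receptors 4 were tested, and 1 rose while 3 fell, among them *Rxra* (-1.82) and *Rara* (-1.53). Of all genes tested 63.6% were called, and the lists are too short to be read against that share.

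In all sorted cells 5 of 7 partners rose (*Zfpm2* at 1.19 and *Zfpm1* at 0.90 among them), *Bcl11a* fell (-0.95) and *Bcl11b* was not called (-0.53). *Nr2f6* fell (-0.28), as did *A830082K12Rik* (-0.41), the retinoic acid binding proteins *Crabp1* (-4.11) and *Crabp2* (-5.38) and the receptor gene *Rara* (-1.47), while of 6 tested targets 3 rose, *Egr1* (1.25) and *Pax6* (1.05) among them, and 2 fell. Of all genes tested 51.7% were called. The median change of the partners was 0.81, against 0.01 for all genes, and in PN-like cells it was 0.04 against -0.004.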

How the data were processed

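Single cells sorted from hindbrain at E14.5 and E18.5 and from dissected pontine nuclei at P5 were captured with 10x Genomics 3' v3.1 chemistry, and raw UMI counts per gene and cell barcode were deposited by the authors, made with Cell Ranger (3.1.0 in 2 file headers and 5.0.1 in 12) on mm10 with WPRE added. Libraries held 108239001 to 236964126 UMIs. The study kept cells with at least 1000 genes and under 1% mitochondrial UMIs and removed doublets with DoubletFinder, but here the limit was 5%, and the 7.5% of cells per library with the highest Scrublet scores were removed.

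Cells of each stage were clustered without *Nr2f1*, *Nr2f2* and the listed genes (scanpy 1.11.5, 2000 variable genes, 30 components, 15 neighbours, Leiden resolution 1), named by marker lists, and PN-like cells were clustered again. Counts were summed per library and group (10 or more cells), and genes with a UMI in 10% of the cells of a genotype were tested with edgeR 4.0.16 (quasi-likelihood, Benjamini-Hochberg adjustment over all genes). A call needed an adjusted p under 0.05 and an absolute log2 change over 0.25. The SE given with edgeR is the absolute log2 change divided by the square root of the F statistic, so intervals of 2 SE are approximate. Alternatives were a litter block, DESeq2 1.42.0, no filter, other cell limits, Leiden resolution 2 and leaving out libraries. Tests of shares were exact permutation tests over libraries. The edgeR genotype test without a block was checked on simulated counts of independent libraries. There 74% of genes changed by 1 on the log2 scale, and 1% of those changed by 0.5, were recovered in all E14.5 cells (10240 genes). The fits with a litter block, DESeq2 and the interaction were not checked in this way. Each mutant and the control of its number were littermates, and their deviations from the group means correlated at 0.52, 0.82 and 0.74 at E14.5 and at 0.78, 0.81 and 0.93 at E18.5. Each library is 1 embryo (P5, pooled pups).

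The genes named were *Nr2f1*, *Nr2f2*, *Nr2f6*, *Bcl11a*, *Bcl11b*, *Zfpm1* and *Zfpm2*, up to 6 other listed genes called per comparison of all sorted or PN-like cells by size of change, and for each receptor the 5 genes with the highest r over clusters. Values of some listed genes are not reported here. Members and lists were chosen with earlier results of these data known.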

Additional observations from a re-analysis of the deposited data

Results flagged for a closer look

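In the sums of PN-like cells, the estimated genotype effect on *Nr2f1* differed between E14.5 and E18.5. The interaction term was -0.85 on the log2 scale (SE 0.18, adjusted p = 0.0471, edgeR's quasi-likelihood test). Within litters, the log2 ratio of mutant to control was 0.10, 0.10 and 0.44 at E14.5 and -0.51, -0.85 and -0.71 at E18.5. The result was flagged because all 3 litters of a stage lay on the same side, opposite at the other stage, so that agreement adds no support. Leaving out any 1 of 11 of the 12 libraries ended the call, with adjusted p up to 0.114 (edgeR). The comparison of PN-like cells summed together was added after the data were seen.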

How the results depend on the processing

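Of the values recomputed with 1 library left out, 199 kept direction and side of the threshold, 17 lost a call, 1 gained a call and 23 changed sign. Under the other settings 206 kept both, 2 lost a call, 11 gained a call and 27 changed sign. Causes were not tested. Values are log2 changes. With litter as a replicate block, *Nr2f1* was called in E18.5 PN-like cells (-0.68) and ePN2-like cells (-0.91) and turned in ePN1-like cells (-0.021), and the block changed no other call of either gene in a state or in all sorted cells. DESeq2 gave -0.68 and -0.91 and no filter -0.68 and -0.92 for the same 2 calls. With the 10% mitochondrial limit *Nr2f1* was called in E14.5 PN-like cells (0.41) and in ePN2-like cells (-0.85), *Nr2f2* turned in E14.5 PN-like (0.12), progenitor-like (0.00066), migrating neuron-2-like (0.20) and ePN4-like cells (0.19), and *Nr2f1* turned in the migrating neuron-2-like state (0.052), ePN1-like (-0.051) and ePN4-like cells (0.67). With doublets kept *Nr2f1* was called in ePN2-like cells (-0.96) and turned in ePN1-like (-0.094) and ePN3-like cells (0.10). At Leiden resolution 2 *Nr2f1* turned in intermediate progenitor-like (0.053), migrating neuron-2-like (0.0058), differentiated neuron-like (0.15), ePN2-like (0.030), ePN3-like (0.042) and ePN4-like cells (0.12), and *Nr2f2* in migrating neuron-2-like (0.091), differentiated neuron-like (0.030) and ePN2-like cells (0.10). With Cell Ranger 5.0.1 libraries only, where E14.5 control 3 is the single control and is assumed to vary like the mutants, *Nr2f1* turned in progenitor-like (-0.047), intermediate progenitor-like (0.18) and differentiated neuron-like cells (0.0019). The rest were added after the data were seen. Without litter 2 *Nr2f1* turned in the migrating neuron-1-like state (0.075). Subclusters were left out with their values known, so those changes are a description. Without the *Met* subcluster ePN2-like cells gave 0.019 for *Nr2f1* and 0.030 for *Nr2f2*, while without the subclusters led by *Antxr1* and by *Etv1* *Nr2f1* was called (-1.16 and -1.04). In the *Id2* cluster, *Nr2f2* turned without the *Fbxl7* subcluster (0.013) and without the *Met* cells (0.086).

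Leaving out 1 library at a time gave, for *Nr2f1*, -1.003 to -0.77 for the interaction in PN-like cells, -0.0020 to 0.37 in progenitor-like, -0.43 to 0.22 in intermediate progenitor-like, -0.16 to 0.16 in migrating neuron-1-like and -0.078 to 0.039 in differentiated neuron-like cells at E14.5, and -0.062 to 0.020 in all sorted, -0.37 to 0.22 in ePN1-like, -1.07 to -0.75 in ePN2-like and -0.18 to 0.15 in ePN3-like cells at E18.5. For *Nr2f2* it gave -0.30 to 0.020 for the interaction in all sorted cells, -0.093 to 0.22 in all sorted, -0.14 to 0.029 in PN-like and -0.34 to 0.0081 in progenitor-like cells at E14.5, -0.18 to 0.025 in all sorted, -0.13 to 0.068 in migrating neuron-like, -0.0070 to 0.75 in ePN1-like, -0.99 to -0.79 in ePN2-like and -1.05 to 0.36 in ePN4-like cells at E18.5, and -0.42 to -0.24 between the stages in all sorted cells.

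The number of genes called depended on the model. In all sorted E14.5 cells it was 1, with 1039 higher and 718 lower under the block and 158 and 82 by DESeq2. In E14.5 PN-like cells it was 519 higher and 172 lower, against 1372 and 1125 under the block and 835 and 466 by DESeq2. In ePN2-like cells it was 1 higher and 3 lower, against 5 and 16 under the block and 1 and 6 by DESeq2. For the interaction in PN-like cells it was 49 and 112, against 887 and 774 under the block and 207 and 286 by DESeq2. The ePN1-like and *Met* results rest on few mutant cells, and in simulated ePN1-like counts (9853 genes) 43% of genes changed by 1 on the log2 scale were called.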
